A study of Mus musculus with 6 samples.

Results

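The genes described here are 3 genes of dividing cells, 2810417H13Rik, Birc5 and Ccnb2, and Cdkn1a, the gene of a cell cycle inhibitor, 4 of the 753 genes measured in mouse macrophages. They were chosen because, in these same libraries, the first 3 were higher and Cdkn1a was lower in macrophages that lack factor H. Their differences between the groups are therefore given as descriptions, with no test. RNA was measured in macrophages from 2 genotypes, factor H knockout (FHKO, n = 3 libraries) and wild type (control, n = 3 libraries), grown in culture from cells flushed out of femur and tibia. The protocol shared by all samples gives an age of 8 to 10 weeks for the FHKO mice. The age of the wild-type mice, the knockout allele, the growth factor and days of culture, and whether the 3 libraries of a group came from separate mice or cultures, are not stated in the labels, so the spread between libraries may be technical. Factor H is a soluble regulator of complement, and the title of the series ties it to macrophage homeostasis and the ion channel TRPM7. No row used here reads the factor H gene itself, so its level gives no check of the labels.

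A cell that divides copies its DNA in S phase and separates the copies in mitosis, and each step has its own genes. The product of 2810417H13Rik, named Pclaf in current annotation, binds PCNA, the sliding clamp of the replication machinery, and is made in S phase. Birc5 encodes survivin, a subunit of the chromosomal passenger complex that steers chromosome alignment and cytokinesis, and Ccnb2 encodes cyclin B2, which activates the kinase CDK1 at entry into mitosis. Cdkn1a encodes p21, which inhibits cyclin-dependent kinases, also binds PCNA, and is a known target of the transcription factor p53. Bone marrow precursors divide in response to colony-stimulating factor 1 and slow their division as they become mature macrophages. In RNA from a whole culture, a change in the share of dividing cells and a change in RNA per dividing cell cannot be told apart.

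The stretches of DNA before the transcription starts of the 4 genes are shown because the first 3 genes were picked for moving against Cdkn1a, and genes of S phase and mitosis are known to share promoter elements. Each holds the 250 bases before a start annotated by RefSeq on GRCm38.p6, in the direction of the gene. Capitals mark matches on either strand to the CCAAT box (CCAAT), which binds NF-Y, to the cell cycle genes homology region (TTTGAA), which binds the complexes that repress and then activate mitotic genes, to an E2F site (TTTCCCGC, TTTGGCGC, TTTCGCGC or TTTGCCGC) or to the p53 consensus decamer. No match to one motif overlapped a match to another.
Pclaf, chr9:65890073-65890322, plus strand: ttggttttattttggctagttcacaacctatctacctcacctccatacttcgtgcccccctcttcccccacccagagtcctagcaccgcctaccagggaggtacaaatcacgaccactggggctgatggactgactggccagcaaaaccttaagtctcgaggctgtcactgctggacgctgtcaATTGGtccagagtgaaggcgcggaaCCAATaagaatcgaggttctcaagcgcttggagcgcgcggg
Birc5, chr11:117848987-117849236, plus strand: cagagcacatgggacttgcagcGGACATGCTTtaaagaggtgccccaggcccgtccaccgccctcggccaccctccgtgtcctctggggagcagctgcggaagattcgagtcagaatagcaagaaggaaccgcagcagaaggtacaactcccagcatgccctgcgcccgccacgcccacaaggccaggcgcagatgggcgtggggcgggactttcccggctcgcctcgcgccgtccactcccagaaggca
Ccnb2, chr9:70421555-70421804, minus strand: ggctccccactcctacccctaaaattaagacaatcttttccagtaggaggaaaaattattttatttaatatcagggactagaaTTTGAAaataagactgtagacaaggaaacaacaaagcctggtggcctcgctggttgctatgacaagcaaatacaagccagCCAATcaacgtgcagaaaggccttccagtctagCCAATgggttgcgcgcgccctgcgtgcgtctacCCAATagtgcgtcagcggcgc
Cdkn1a, outer start, chr17:29090729-29090978, plus strand: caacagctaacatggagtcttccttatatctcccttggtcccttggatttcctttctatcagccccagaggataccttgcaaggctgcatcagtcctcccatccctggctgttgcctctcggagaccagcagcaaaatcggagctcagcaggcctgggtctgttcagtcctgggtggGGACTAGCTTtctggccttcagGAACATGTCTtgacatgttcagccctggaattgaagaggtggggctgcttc
Cdkn1a, inner start, chr17:29093519-29093768, plus strand: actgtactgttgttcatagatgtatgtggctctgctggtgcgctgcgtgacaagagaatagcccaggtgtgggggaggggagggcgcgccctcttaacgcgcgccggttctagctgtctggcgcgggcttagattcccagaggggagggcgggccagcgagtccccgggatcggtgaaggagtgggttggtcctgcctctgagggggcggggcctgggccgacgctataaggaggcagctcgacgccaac

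The Ccnb2 stretch held 3 CCAAT boxes, at 87 to 83, 54 to 50 and 21 to 17 bases before the start, and 1 TTTGAA farther out. A second TTTGAA lay just past the start, at bases 5 to 10 of the transcript. The Pclaf stretch held 2 CCAAT boxes, and an E2F site on the opposite strand ran from 5 bases before the start to base 3 after it, so it is cut off in the print and not in capitals. Birc5 held neither a CCAAT box nor a TTTGAA in this window, and 1 p53 decamer. The outer start of Cdkn1a held 2 p53 decamers, at 73 to 64 and 51 to 42 bases before it, and the inner start held no match to any of the motifs. Of all 32851 promoter windows of the same table, 33.8% held a CCAAT box, 16.0% a TTTGAA, 1.86% an E2F site and 7.13% a p53 decamer in the same 250 bases. A match describes these letters only. The files do not say which Cdkn1a transcript the probe reads.

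All 4 genes passed the filter on low values, which asked for 20 normalised counts in 3 or more of the 6 libraries, as did 490 genes of the panel. A normalised count here is a whole count, taken to be of probes since the rows include named positive and negative controls, multiplied by 1 factor per library. The lowest value of any of the 4 genes was 7.62 times the highest mean of the negative-control probes on that scale.

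2810417H13Rik (Pclaf) varied most. Its normalised counts were 293, 462 and 376 in FHKO libraries 1 to 3, against 118, 181 and 257 in control libraries 1 to 3. All 3 FHKO libraries lay above all 3 controls, and the gap between the lowest FHKO and the highest control was small, a factor of 1.14. The means were 377 ± 84.5 in FHKO and 185 ± 69.7 in control (SD, n = 3 each), a difference of 1.07 on the log2(value + 1) scale (SE, the standard error, 0.29), or 2.10-fold. For single genes the SE is that of the limma fit, which pulls a gene's spread toward that of other genes. It can therefore understate the uncertainty of a gene as variable as this one, whose own within-group SD was 0.46 on the log2 scale. The spread within the groups was wide: the coefficient of variation was 22.4% in FHKO and 37.6% in control, against a mean counting error of 5.53% and 8.22%.

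Birc5 had 337, 365 and 357 in the FHKO libraries, against 225, 273 and 282 in the controls. Control 1 was the lowest, and the groups did not overlap. The means were 353 ± 14.1 in FHKO and 260.0 ± 30.3 in control (SD, n = 3 each), a log2 difference of 0.45 (SE 0.12). The FHKO spread of 4.0% was below the mean counting error of 5.60%, so it understates the uncertainty.

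Ccnb2 had 444, 434 and 446 in the FHKO libraries, against 308, 393 and 332 in the controls. Here control 2, not control 3, was the highest control, and the groups again did not overlap. The means were 441 ± 6.45 in FHKO and 345 ± 43.7 in control (SD, n = 3 each), a log2 difference of 0.36 (SE 0.12). The FHKO spread was 1.46%, less than the mean counting error of 4.99%.

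Cdkn1a went the other way. It had 1444, 1497 and 1534 in the FHKO libraries, against 2115, 1652 and 1834 in the controls. Every FHKO library lay below every control, with control 1 the highest and control 2 only 1.08 times the highest FHKO value. The means were 1492 ± 45.0 in FHKO and 1867 ± 233 in control (SD, n = 3 each), a log2 difference of -0.32 (SE 0.11), or 0.803-fold. The FHKO spread, 3.02%, was close to the counting error of 2.72%, while the control spread of 12.5% was well above its counting error of 2.46%.

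**Figure D1:**
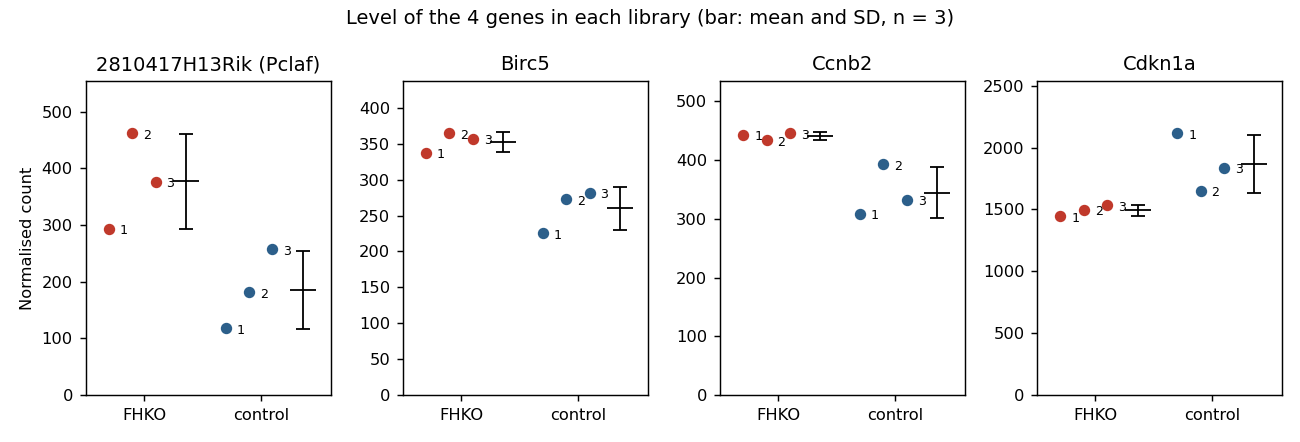
Normalised count (linear axis from 0) of the 4 genes in each FHKO (left) and control (right) library, numbered by replicate, with the mean and SD (n = 3) beside the points. In each gene the groups do not overlap, and control 1 is the lowest library for the first 3 genes and the highest for Cdkn1a.

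Groups that do not overlap were common on this panel. Among the 490 genes, 22.9% had all FHKO values above all control values and 6.33% had them all below. The 4 genes were chosen on this contrast, and nothing is read from their count. By log2 difference 2810417H13Rik ranked 11 from the top of the 490 genes, Birc5 84 and Ccnb2 111, and Cdkn1a ranked 14 from the bottom. The median gene of the panel stood at 0.16, and 71.8% of the genes lay above 0. limma called 1 gene of the 490 (0.204%) at an adjusted p under 0.05, Il1rn, which encodes the interleukin-1 receptor antagonist and was lower in FHKO (log2 difference -0.76, adjusted p = 0.0200). With the replicate block, and on leaving out FHKO 1, FHKO 3 or any 1 of the controls, limma called 0 genes, so the Il1rn call was lost there. With all 6 libraries it was kept after setting library medians equal (limma, adjusted p = 0.000717) and after quantile normalisation (limma, adjusted p = 0.0124). It was also kept on the recovered counts (edgeR, adjusted p = 0.00587, and DESeq2, adjusted p = 1.54e-10).

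The differences of Birc5 and Ccnb2 depended on the scaling. The deposited factors set the mean log2 value of 16 reference genes equal between libraries. Single reference genes still varied, and the most variable of the 16, Hprt, had a range of 1.38 on the log2 scale. Under median scaling, where each library is instead multiplied so that all have 1 common median, log2 differences shifted by -0.29 and the median gene stood at -0.13. 2810417H13Rik then had a log2 difference of 0.77 and Cdkn1a -0.61, both still without overlap, while Birc5 had 0.15 and Ccnb2 0.07 and their groups overlapped. Of the 490 genes, 6.33% had all FHKO values above and 23.3% had them all below under that scaling. After quantile normalisation the values were 0.81, 0.15 and 0.14 for 2810417H13Rik, Birc5 and Ccnb2 and -0.39 for Cdkn1a, and again only 2810417H13Rik and Cdkn1a, of the 4, kept separate groups.

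Ratios within a library do not depend on the scaling. The ratio of Cdkn1a to 2810417H13Rik was 4.93, 3.24 and 4.08 in the FHKO libraries, against 18.0, 9.13 and 7.14 in the controls. The ratio of Cdkn1a to Birc5 was 4.28, 4.11 and 4.30 in FHKO, against 9.38, 6.06 and 6.51 in control, and that of Cdkn1a to Ccnb2 was 3.26, 3.45 and 3.44 in FHKO, against 6.86, 4.20 and 5.52 in control. Each ratio was lower in all FHKO libraries than in any control, and its size also depends on the probes, so ratios are compared between libraries only. The same held widely: for 67.9% of the other 486 tested genes, the ratio of Cdkn1a to the gene was lower in every FHKO library than in any control.

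The proliferation genes can be summed up by the mean of their 3 log2 values in a library. It was 8.47, 8.71 and 8.62 in FHKO libraries 1 to 3, against 7.66, 8.08 and 8.18 in control libraries 1 to 3. Cdkn1a, on the same log2(value + 1) scale, was 10.50, 10.55 and 10.58 in FHKO and 11.05, 10.69 and 10.84 in control. The proliferation mean minus Cdkn1a was -1.95 ± 0.10 in FHKO and -2.89 ± 0.43 in control (SD, n = 3 each), a difference of 0.94 (SE 0.25). This SE comes from the gaps of the libraries alone, not from the limma fit. Control 1 stood apart with -3.38, against -2.62 and -2.66 in the other controls, and without it the difference of the gap was 0.69.

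Across the 6 libraries Cdkn1a ran inversely to the proliferation mean, with a Pearson r of -0.90 and a Spearman rho of -0.77. These are descriptions with no p, since the genes were picked for this relation and the libraries form 2 groups that share the panel and the scaling. The order within the groups was less regular. Among the controls the library with the most Cdkn1a, control 1, had the lowest proliferation mean, but control 3 was above control 2 in both measures. Among the FHKO libraries, FHKO 1 was lowest in both. With each group's mean taken off, r was -0.65. Without control 1 and FHKO 2, the libraries farthest from the median of the proliferation mean, it was -0.71 over the 4 left, and without control 1 alone it was -0.74.

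The 3 proliferation genes did not share 1 relation to Cdkn1a. With the deposited scaling r was -0.97 for Ccnb2, -0.92 for Birc5 and -0.82 for 2810417H13Rik. Under median scaling the order turned round, with r of -0.17 for Ccnb2, -0.76 for Birc5 and -0.95 for 2810417H13Rik, and that of the proliferation mean was -0.95. Ccnb2 was also the gene least like the other proliferation genes. 2810417H13Rik and Birc5 had the same order of all 6 libraries (r = 0.97, rho = 1), while Ccnb2 had r of 0.78 with 2810417H13Rik and 0.91 with Birc5. The order of Ccnb2 within FHKO rests on a spread of 1.46%, below its counting error of 4.99%.

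**Figure D2:**
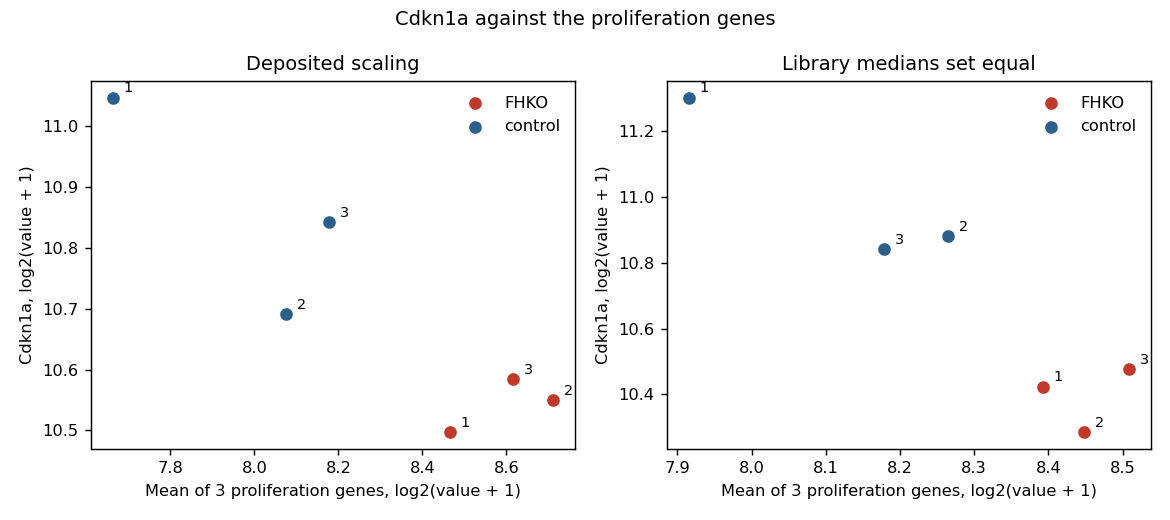
Cdkn1a against the mean of 2810417H13Rik, Birc5 and Ccnb2, both as log2(value + 1), 1 point per library with its replicate number, FHKO in red and control in blue, with the deposited scaling (left) and with library medians set equal (right). The FHKO libraries lie at the lower right of both panels, and control 1 lies alone at the upper left, with r of -0.90 and -0.95.

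Library depth moved with 2810417H13Rik and Birc5 inside the groups, and less with Ccnb2. The recovered probe counts summed to 717503, 1348064 and 925070 in FHKO libraries 1 to 3 and to 725234, 996065 and 1083624 in control libraries 1 to 3. Within each group, 2810417H13Rik, Birc5 and the proliferation mean had exactly the order of these totals, with an r of 0.88, 0.77 and 0.84 to the log2 total once group means were taken off. For Ccnb2 that r was 0.24, and its order differed from that of the totals in both groups. With the log2 total as a covariate, a setting added after the data were seen, the log2 differences were 1.0, 0.43 and 0.36 for 2810417H13Rik, Birc5 and Ccnb2 and -0.31 for Cdkn1a. The part of depth in these differences was not tested.

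Further genes of the cell cycle on the panel did not enter the choice of the 4 genes and were tested with all 490 genes. Their list, like those below, was still drawn up with earlier results of these data known. Of 106 genes of a cell cycle list, 8 were on the panel, and all 8 passed the filter. All 8 lay above 0 and 7 above the median gene, with a median log2 difference of 0.30 against 0.16 for all tested genes. Of all 490 genes, 71.8% lay above 0. None was called by limma at an adjusted p under 0.05. At an unadjusted p under 0.05, 2 were higher and 0 lower in FHKO, where 19% of all genes were higher and 3.47% lower. edgeR and DESeq2 on the recovered counts called 0 of them, and DESeq2 gave 1 no adjusted p. Under median scaling their median was 0.00, against -0.13 for all tested genes, and 4 of the 8 lay above 0, against 151 of the 490 genes. In 4 of the 8 the FHKO values lay above all control values, beside 22.9% of the panel.

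The genes of DNA copying fell into different patterns. Top2a encodes topoisomerase II alpha, which untangles DNA during replication and mitosis. It had 1202, 1774 and 963 in FHKO, against 499, 809 and 1115 in control. The groups overlapped through FHKO 3 and control 3, and the log2 difference was 0.73 (SE 0.32; limma, adjusted p = 0.220), or 0.43 under median scaling. With the total count as a covariate Top2a was the 1 gene of the list called, with a log2 difference of 0.66 (limma, adjusted p = 0.0343), in a setting that called 15.9% of all genes. Mcm5, a subunit of the replicative helicase, had 1088, 942 and 1021 in FHKO, against 1115, 1005 and 887 in control. Its groups overlapped, with a log2 difference of 0.02 and a standard error of 0.11, and -0.27 under median scaling (limma, adjusted p = 0.915 with the deposited scaling).

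Of the mitotic genes, Kif20a was nearest to the threshold. It encodes a kinesin of the central spindle needed for cytokinesis, and had 469.9, 524 and 449 in FHKO, against 388, 400.2 and 371 in control. The groups did not overlap, and the log2 difference was 0.31 (SE 0.10; limma, adjusted p = 0.148), or 0.02 under median scaling. Ttk, a kinase of the spindle checkpoint, had 84.3, 125.7 and 60.6 in FHKO, against 49.5, 57.6 and 74.3 in control. Ndc80, a kinetochore protein that holds microtubules, had 31.8, 73.3 and 57.3 in FHKO, against 23.3, 30.3 and 45.7 in control. Both overlapped between the groups and came nearest to the negative-control level, which averaged up to 15.5 on this scale. Their log2 differences were 0.53 and 0.67 (limma, adjusted p = 0.301 each), and 0.24 and 0.38 under median scaling. Cdc20, which activates the ubiquitin ligase that ends mitosis, had 346, 364 and 350.3 in FHKO, against 345, 325 and 270.3 in control. FHKO was above every control, narrowly in FHKO 1. Its log2 difference was 0.18 (limma, adjusted p = 0.375), and -0.12 under median scaling.

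Myc, a transcription factor gene that promotes growth and division, had 379, 425 and 423 in FHKO, against 317, 357 and 362 in control. These groups did not overlap either. The log2 difference was 0.24 (SE 0.11; limma, adjusted p = 0.218), and it turned to -0.05 under median scaling.

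**Figure D3:**
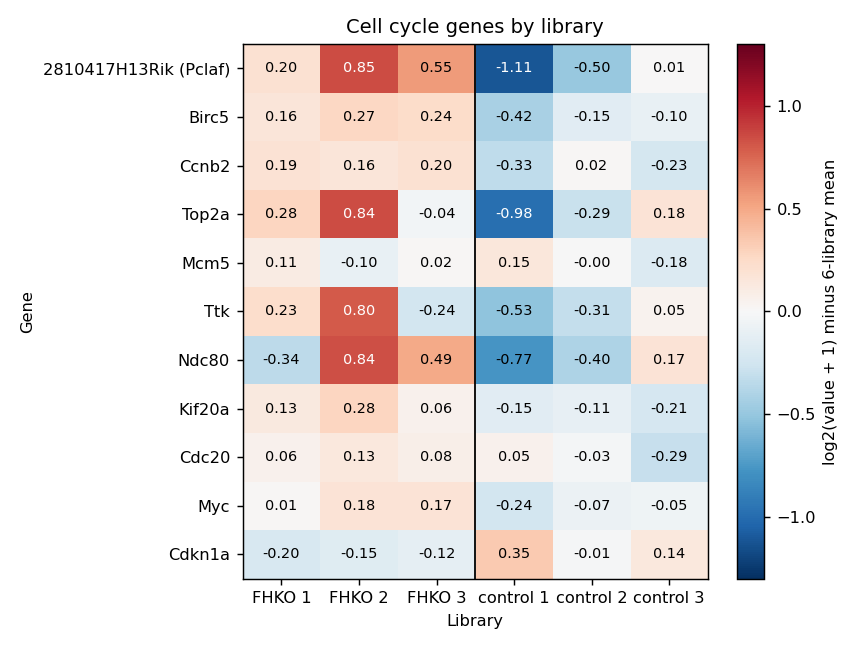
Deviation of log2(value + 1) from the mean of the 6 libraries for the 3 proliferation genes, 7 other cell cycle genes and Cdkn1a, in FHKO libraries 1 to 3 (left) and control libraries 1 to 3 (right). 2810417H13Rik, Top2a, Ttk and Ndc80 peak in FHKO 2 and are lowest in control 1, while Mcm5, Cdc20 and Kif20a are lowest in control 3.

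The libraries sorted these genes in a recurring way. FHKO 2 was the highest FHKO library for 2810417H13Rik, Birc5, Top2a, Ttk, Ndc80, Kif20a, Cdc20 and Myc, and control 1 the lowest control for 2810417H13Rik, Birc5, Ccnb2, Top2a, Ttk, Ndc80 and Myc. Ccnb2 was lowest in FHKO 2 among the FHKO libraries. FHKO 2 was also the deepest library and control 1 the shallowest control. Mcm5 and Cdc20 went against this among the controls, with control 1 the highest, and Kif20a was lowest in control 3. Mcm5 also went against it among the FHKO libraries, with FHKO 2 the lowest. The r with the proliferation mean across the 6 libraries was 0.98 for Myc and 0.88 for Top2a, but 0.32 for Cdc20 and -0.35 for Mcm5.

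**Figure D4:**
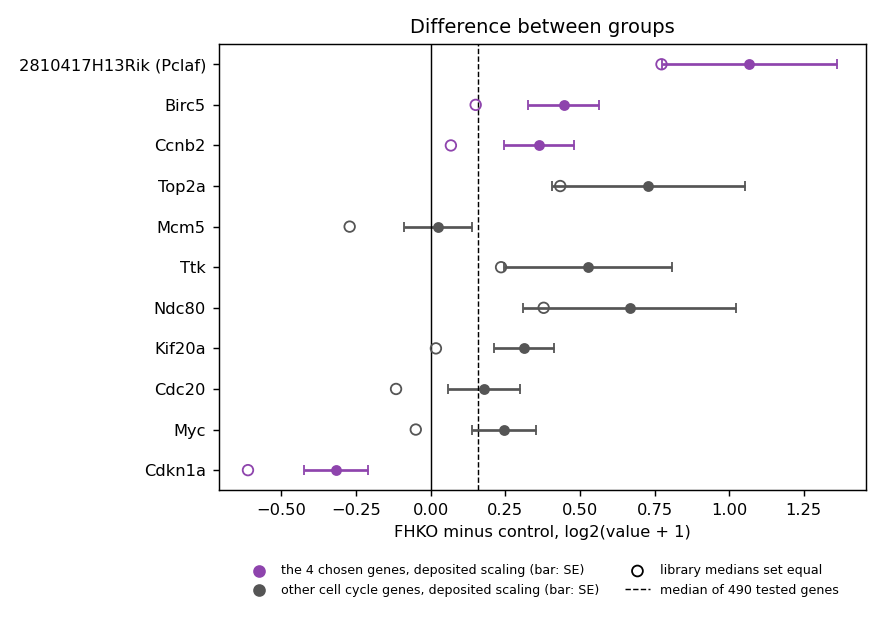
Difference, FHKO minus control, in log2(value + 1) with its SE from the limma fit for the 4 chosen genes (purple) and 7 other cell cycle genes (grey), with open circles for median scaling. The dashed line marks the median of the 490 tested genes, 0.16. The open circles of Birc5, Ccnb2 and Kif20a lie between 0.02 and 0.15, and Cdkn1a lies below 0 in both.

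The other p53 targets on the panel lay above 0 with the deposited scaling, as did 71.8% of all tested genes. Of 35 such genes apart from Cdkn1a, 4 were on the panel and tested. Their median log2 difference was 0.23, against 0.16 for all tested genes. limma, edgeR and DESeq2 called 0 of them, 0 had an unadjusted p under 0.05, and DESeq2 gave 2 no adjusted p. Sesn1, a sestrin of the stress response, had 1242, 1403 and 1289 in FHKO, against 900.2, 1075 and 1236 in control. Its FHKO libraries lay just above the controls, with a log2 difference of 0.30 (limma, adjusted p = 0.217), or 0.01 under median scaling. Btg2, an antiproliferative gene, had a log2 difference of 0.18, and Fas, a death receptor, 0.16 (limma, adjusted p of 0.407 and 0.712), and both had -0.12 under median scaling. Fas averaged 20.8 in FHKO and 18.8 in control, close to background. With library medians set equal, 1 of the 4 lay above 0, against 151 of the 490 genes, and their median was -0.07, against -0.13.

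Among genes of mitogens, their receptors and growth arrest, 25 of 29 on the panel were tested. limma and edgeR called 0 of them, and DESeq2 called 5, beside 5.31% of all genes. At an unadjusted p under 0.05, 10 were higher and 1 lower in FHKO, beside 19% and 3.47% of all genes. Their median log2 difference was 0.25 and 20 of the 25 lay above 0, against a median of 0.16 and 71.8% above 0 for all tested genes. Under median scaling the list's median turned to -0.05, with 10 of the 25 above 0, against -0.13 and 151 of 490 for all tested genes. The 3 of smallest p were Id1 and Id3, inhibitors of differentiation factors, and Kitl, the ligand of the receptor Kit. Kitl had 326, 534 and 291 in FHKO, against 180.3, 167 and 226 in control, without overlap, a log2 difference of 0.96 (SE 0.24; limma, adjusted p = 0.138). Id1 and Id3 had log2 differences of 1.01 and 0.96 (limma, adjusted p = 0.0993 each). Under median scaling Kitl, Id1 and Id3 had 0.67, 0.72 and 0.67. DESeq2 called all of Kitl, Id1 and Id3 (DESeq2, adjusted p of 0.00919, 0.00769 and 0.00769). Csf1r, the receptor of colony-stimulating factor 1, had 6668, 6898 and 7393 in FHKO, against 6044, 5676 and 5717 in control, and its log2 difference of 0.26 missed the threshold (limma, adjusted p = 0.141) and was -0.03 under median scaling. Hbegf, which encodes a growth factor that binds the EGF receptor, had 60.8, 85.7 and 75.2 in FHKO, against 125.1, 105.1 and 99.0 in control. It was lower in FHKO without overlap, with a log2 difference of -0.57 (SE 0.17; limma, adjusted p = 0.148). Under median scaling it was the 1 gene of the list that limma called (log2 difference -0.86; limma, adjusted p = 0.0353), beside 2.86% of all genes. DESeq2 called Hbegf too, with the largest adjusted p of its 5 calls in the list (DESeq2, adjusted p = 0.0358).

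Survivin belongs to the family of inhibitors of apoptosis proteins, and the other 2 members of that family on the panel, Birc2 and Birc3, had log2 differences of 0.24 and 0.36 with overlapping groups (limma, adjusted p of 0.544 and 0.327), and -0.05 and 0.07 under median scaling. Of 9 tested genes of apoptosis and survival, limma, edgeR and DESeq2 called 0, and 0 had an unadjusted p under 0.05, while DESeq2 gave 3 no adjusted p. The 3 of smallest p were Bid, Bcl2 and Tnf, with log2 differences of 0.35, 0.64 and 0.19 (limma, adjusted p of 0.220, 0.277 and 0.309), and 0.06, 0.35 and -0.11 under median scaling. The median of the 9 genes was 0.24 with 7 above 0, and under median scaling -0.05 with 4 above 0. For all 490 tested genes the median was 0.16 with 352 above 0, and under median scaling -0.13 with 151 above 0.

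The cultures carried the macrophage markers they were labelled with. The 9 macrophage markers on the panel, among them Adgre1, Cd68 and Csf1r, were all tested and summed to between 54053 and 57132 in FHKO and between 51163 and 54155 in control. Genes of progenitors and granulocyte precursors, cells that divide in bone marrow, were close to background: of 9 on the panel 8 failed the filter, among them Kit, Flt3, Mpo and Elane, and no value of these 8 passed 26.2. Cd34 was the exception, with 202, 132 and 177 in FHKO, against 125, 117 and 99.0 in control, and the list summed to between 232 and 322 in FHKO and between 206 and 237 in control. The monocyte list, in which Ccr2 was the 1 tested gene of 4, summed to between 274 and 549 in FHKO and between 148 and 251 in control. Ccr2 had 238, 510.2 and 256 in FHKO, against 98.9, 159 and 205 in control (log2 difference 1.09; limma, adjusted p = 0.148). The part of Cd34- and Ccr2-expressing cells in the differences of the proliferation genes was not tested. Neutrophil markers summed to between 376 and 554 in FHKO and between 465 and 557 in control, and dendritic cell markers to between 672 and 774 in FHKO and between 712 and 1002 in control. B cell, T and NK cell and stroma markers failed the filter, with no value above 21.2.

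The genes whose pattern over the 6 libraries was most like the proliferation mean were Hpgd, Cytip, Map2k1, Ifngr1, Terf2ip and Tnfrsf14, with r between 0.98 and 1.0. Such likeness was frequent: 59 of the other 486 tested genes (12.1%) had an r of 0.9 or more, and 13 (2.67%) had -0.9 or less. Under median scaling Hpgd, Cytip and Terf2ip kept r of 0.98, 0.98 and 0.96, while Map2k1 had 0.31, Ifngr1 0.55 and Tnfrsf14 0.73. At the other end stood Ndufa7, Trem2, Ctsd, Rpl19, Hras and H2-Q1, with r between -0.98 and -0.96. The genes most like Cdkn1a were Cd276, S100a11, Hras, Mif, Ctsd and Atf3, with r of 0.93 to 0.99, and under median scaling they had 0.98 to 1.0. Most of the panel ran inversely to Cdkn1a: the median r with it was -0.37, and r was positive for 162 of the 486 genes. An r of -0.9 or less was found for 9 (1.85%), and only 8 of the 486 genes reached an r of 0.9 with Cdkn1a. Cd276 had the highest, 0.99, and like Cdkn1a it was lower in every FHKO library than in any control (log2 difference -0.25; limma, adjusted p = 0.304).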

How the data were processed

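RNA of 6 macrophage libraries, 3 FHKO and 3 control, was grouped by sample title. The authors deposited 1 normalised signal per gene and library. In the file 99.6% of gene values were whole counts times 1 factor per library (tolerance 0.0051). The factors equalise the mean log2 value of 16 of the 20 reference genes. The sources used here give no platform or software. Rows were 753 genes and 14 controls, of which 8 were negative controls. Symbols were matched to RefSeq GRCm38.p6 (743 directly, 9 by synonym, 1 not).

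The 490 genes at 20 or more in at least 3 libraries were fitted as log2(value + 1) with limma 3.58.1 (lmFit, eBayes with intensity trend, R 4.3.3), FHKO minus control, two-sided, with Benjamini-Hochberg adjustment over all 490. Log2(value + 1) understates the change of low genes. The procedure was tested on simulated data. edgeR 4.0.16 and DESeq2 1.42.0 on the recovered counts, other scalings, filters, pseudocounts, a replicate block and leaving out each library were alternatives. No 2 libraries of a group agreed within sampling noise (chi-square over degrees of freedom, 9.02 or more). The genes and lists were chosen with earlier results of these data known. Named beside the 4 genes were the tested cell cycle and p53 genes (1 of each list enters the counts and is not reported here by name), the 3 of smallest p of other lists and the 6 genes nearest in pattern. Csf1r, Hbegf, Birc2, Birc3, Cd34, Ccr2 and the precursor markers were named after their values were seen. Counting errors cover counting only. Figures used matplotlib 3.10.9.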

Additional observations from a re-analysis of the deposited data

How the results depend on the processing

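The gap between the proliferation mean and Cdkn1a and the difference of 2810417H13Rik kept their sign and moved by less than the spread between replicates under all alternatives run. Some of these could not move them. Multiplying a whole library by 1 factor leaves the gap as it was, apart from the added 1, and the balanced replicate block leaves both differences unchanged. Quantile normalisation can change the gap, and gave 0.76 against 0.94. With library medians set equal the log2 differences were 0.15 for Birc5, 0.068 for Ccnb2 and -0.61 for Cdkn1a, 2 of the 4 genes kept separate groups, limma called 14 genes (4 higher, 10 lower) against 1 (0 higher, 1 lower), and 151 of 490 genes lay above 0, against 352. Quantile normalisation gave 0.15 for Birc5 and 0.14 for Ccnb2, with 2 of the 4 genes separate. DESeq2 called 26 genes over the panel, and the total count as a covariate, added after the data were seen, called 78, of which 1 was in the cell cycle list. The cause of these moves was not tested. Leaving out each library gave 0 to 3 called genes over the panel, with 0 in every case but FHKO 2, whose removal gave 3, and an r between -0.94 and -0.74 for Cdkn1a with the proliferation mean, the weakest without control 1. It gave log2 differences of 0.78 to 1.34 for 2810417H13Rik, 0.35 to 0.51 for Birc5, 0.29 to 0.46 for Ccnb2 and -0.40 to -0.22 for Cdkn1a. With the replicate block limma called 0 genes, and same-numbered libraries did not deviate together (r of 0.26, -0.03 and -0.29), so the numbers were not used as pairs. Counting error, on average 4.99% to 6.64% over the libraries of a group for Birc5 and Ccnb2, limits what smaller differences can show. It was largest in control 1, which had the lowest counts, 155 for Birc5 and 212 for Ccnb2.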

Other observations

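Some genes of histones and DNA repair outside the lists, chosen after their values were seen and so not tested as a group, did not share the pattern of the proliferation genes. The histone genes Hist1h1c and Hist2h2aa1 had log2 differences of -0.02 each with overlapping groups. Hist2h2aa1 had 10633, 8201 and 9121 in FHKO, against 10800.1, 9891 and 7693 in control, so FHKO 2 was the lowest FHKO library and control 3 the lowest control, the deepest library of each group. Ercc1, of nucleotide excision repair, had 188, 192 and 185 in FHKO, against 234, 234 and 213 in control, lower without overlap (log2 difference -0.27; limma, adjusted p = 0.194).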
